A study of Homo sapiens with 8 samples.

Results

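RNA levels in shADAR1 cells were set against those in shControl cells, using unprecipitated RNA (input) of the IMR90 line, which are human fetal lung fibroblasts. The shADAR1 cells carry a hairpin RNA against ADAR1, whose gene is ADAR, and the shControl cells carry a control hairpin. The series also holds HuR precipitates of both lines, an shHuR line with its input and precipitate, and a separate RNA-seq pair of ADAR1 knockdown and control cells, 8 libraries in all. Each group held 1 library, so no difference below has a replicate check, and the 95% intervals given cover counting error only. The hairpin sequences, the time after their introduction and the number of clones are not stated in the labels. A gene entered the comparison when at least 1 of the 2 inputs held 50 or more counts, which 13192 of the 57736 listed genes did. A symbol was found for 12626 of them.

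ADAR1 turns adenosine into inosine within double-stranded RNA, and the title of the series asks about a role of ADAR1 in p16 regulation and senescence that does not need editing. Unedited double-stranded RNA of the cell's own can be read by the sensors MDA5, RIG-I, PKR and the OAS enzymes, which signal for type I interferon and arrest translation. Senescent fibroblasts are known for a lasting stop of division, with loss of lamin B1 and high mobility group proteins, and for secretion of chemokines, growth factors and proteases. HuR is a protein that binds AU-rich stretches of mRNA.

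The inputs held 28390935 counts in shADAR1 and 36717888 in shControl, with 19519 and 20060 genes above 0. Counts were scaled by the trimmed mean of M values, so that a gene with equal counts in both inputs stands above 0: NORAD, an abundant noncoding RNA, had 19126 counts in the shADAR1 input and 19123 in the shControl input, which is a log2 ratio of 0.49. Where 1 library had 0 counts, the fold was taken against 3 counts, which is 0.110 CPM (counts scaled to the library total) in shADAR1 and 0.0785 in shControl. Of the counts, 2 IDs that have no symbol took 12.8% in shADAR1 and 13.6% in shControl.

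ADAR itself had 3142 counts in the shADAR1 input and 12890 in the shControl input. The level was 2.93-fold lower (log2 ratio -1.55, interval -1.61 to -1.49), in the direction of the label. ADARB1, the second editing enzyme of mRNA, had 1019 and 1448 counts (log2 ratio -0.02), and ADARB2 had 0 counts in both inputs. ADAT3, a subunit of the tRNA deaminase, had 6 counts in the shADAR1 input and 69 in the shControl input, with 35.4% of its exon length shared with another gene. Its catalytic partner ADAT2 had 114 and 240 counts (log2 ratio -0.59, -0.92 to -0.26).

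A gene was called higher or lower at 2-fold, which in a comparison without replicates is a threshold of size and not a test. Of the 13192 genes, 1206 were higher in the shADAR1 input (9.14%) and 1356 were lower (10.3%). At 4-fold the counts were 357 higher and 281 lower, and at 16-fold 88 higher and 51 lower. The log2 ratios had quartiles of -0.49 and 0.42 and a median of -0.03. Scaling by total counts moved every log2 ratio by -0.11, and total counts without the 10 most abundant genes gave 997 higher and 1694 lower, which is 37.0% of calls higher against 47.1% above. Depth set the precision: of 2309 genes with fewer than 200 counts in both libraries, 35.0% were past 2-fold and the median interval spanned 1.01 on the log2 scale, and of 6497 genes with 1000 or more counts, 14.9% were past 2-fold with a span of 0.18. Just outside the entry limit, 353 genes with 40 to 49 counts had a median of -0.24, and just inside it 300 genes with 50 to 59 counts had -0.15.

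**Figure D1:**
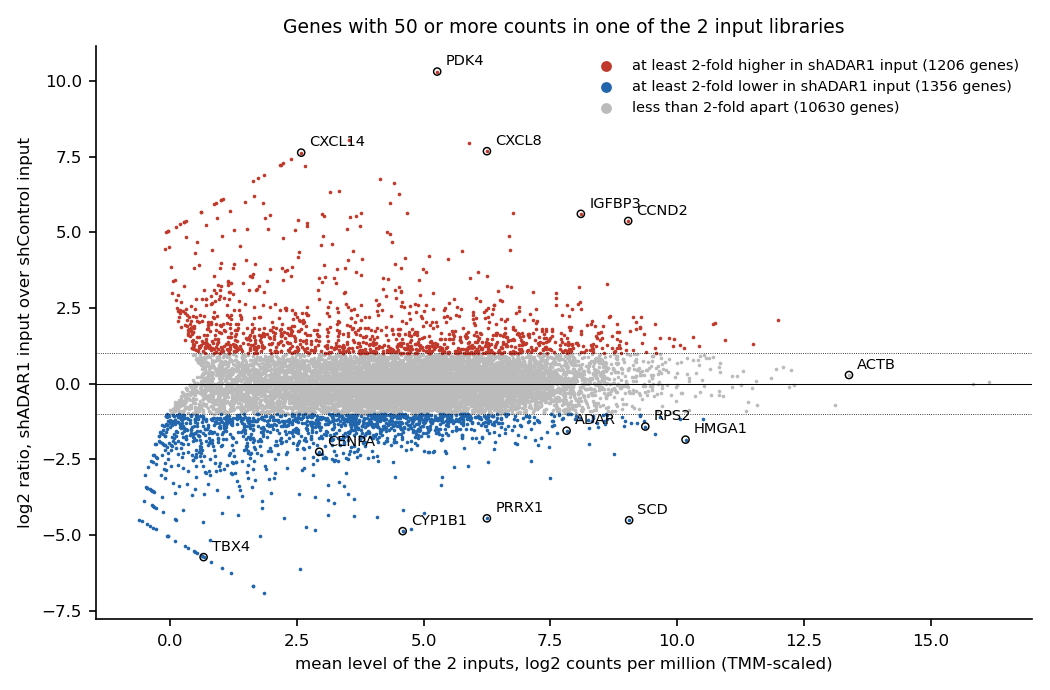
Log2 ratio of each gene (vertical axis, shADAR1 input over shControl input) against its mean level in log2 CPM (horizontal axis). Each point is 1 of 13192 genes, red where higher and blue where lower by at least 2-fold, dotted lines mark 2-fold; PDK4 stands highest at the top and SCD lies at -4.51 among abundant genes, while ACTB lies near 0.

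The ratios also went with base composition and length. Over 5 equal bins of GC content, from the lowest to the highest, the median log2 ratio was 0.20, 0.11, 0.02, -0.12 and -0.39. Over 5 equal bins of transcript length, from the shortest to the longest, it was -0.26, -0.09, 0.01, 0.06 and 0.17. Values with both trends removed were available for 12879 genes. They are given below for genes described there whose call changed with them and for some of the lists, not for every list whose counts changed. What part these properties have in the ratios was not tested.

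Promoter sequences of 6 genes are shown because 4 of the gene lists described below often hold the same short motif there. The 6 were picked among called list members whose promoter holds the motif, so a match was a condition of the choice. They come from the RefSeq table for GRCh38.p14, run from 250 bases before to 50 after the annotated start on the gene's own strand, and carry motif matches in capitals. IFI6 (chr1:27672143-27672442, minus strand) and CXCL10 (chr4:76023448-76023747, minus strand) belong to the interferon-stimulated effectors, and their capitals mark the core of the interferon-stimulated response element, GAAANNGAA. CXCL1 (chr4:73869143-73869442, plus strand) is a chemokine with capitals at NF-kB motifs, GGNNTTTCC or GGNNTTCCC. CENPA (chr2:26785806-26786105, plus strand) encodes the histone of the centromere, with capitals at the cell cycle homology region, TTTGAA. GINS2 (chr16:85688905-85689204, minus strand) and CDT1 (chr16:88803539-88803838, plus strand) act in DNA replication, with capitals at E2F motifs, TTTGGCG or TTTCCCGC, on either strand.
IFI6: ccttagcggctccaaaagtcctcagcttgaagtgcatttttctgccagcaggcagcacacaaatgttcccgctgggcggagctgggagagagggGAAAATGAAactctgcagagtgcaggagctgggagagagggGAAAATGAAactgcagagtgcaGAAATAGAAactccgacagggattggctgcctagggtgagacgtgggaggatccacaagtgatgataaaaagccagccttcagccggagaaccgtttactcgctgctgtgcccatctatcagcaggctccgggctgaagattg
CXCL10: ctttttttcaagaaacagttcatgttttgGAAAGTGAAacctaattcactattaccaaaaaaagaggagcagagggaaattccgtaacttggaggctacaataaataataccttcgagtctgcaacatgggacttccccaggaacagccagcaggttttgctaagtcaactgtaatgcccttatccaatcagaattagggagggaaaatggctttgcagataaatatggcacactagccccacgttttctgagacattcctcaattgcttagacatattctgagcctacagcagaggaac
CXCL1: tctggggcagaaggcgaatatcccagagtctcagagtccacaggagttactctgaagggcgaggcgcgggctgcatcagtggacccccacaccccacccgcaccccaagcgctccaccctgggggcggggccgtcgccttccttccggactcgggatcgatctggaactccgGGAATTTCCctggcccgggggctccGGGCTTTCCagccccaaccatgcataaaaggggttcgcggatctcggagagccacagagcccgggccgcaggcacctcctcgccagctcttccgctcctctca
CENPA: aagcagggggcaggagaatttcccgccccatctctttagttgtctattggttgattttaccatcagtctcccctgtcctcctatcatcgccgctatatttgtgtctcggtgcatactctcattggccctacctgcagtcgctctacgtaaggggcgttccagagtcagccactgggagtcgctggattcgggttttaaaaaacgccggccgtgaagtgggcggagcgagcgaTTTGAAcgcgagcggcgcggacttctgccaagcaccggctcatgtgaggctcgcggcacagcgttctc
GINS2: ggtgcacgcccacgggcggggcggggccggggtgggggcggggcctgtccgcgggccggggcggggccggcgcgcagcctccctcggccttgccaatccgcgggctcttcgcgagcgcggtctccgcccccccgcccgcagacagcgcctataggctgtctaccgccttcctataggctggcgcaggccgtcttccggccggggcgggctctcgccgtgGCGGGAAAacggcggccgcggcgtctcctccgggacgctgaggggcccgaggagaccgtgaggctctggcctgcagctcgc
CDT1: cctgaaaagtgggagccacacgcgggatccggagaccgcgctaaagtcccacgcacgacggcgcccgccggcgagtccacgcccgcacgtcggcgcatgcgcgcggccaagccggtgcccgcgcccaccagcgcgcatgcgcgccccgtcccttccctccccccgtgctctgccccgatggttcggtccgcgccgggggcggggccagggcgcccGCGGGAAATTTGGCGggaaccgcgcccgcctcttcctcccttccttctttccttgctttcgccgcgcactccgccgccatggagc

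Of the members with a symbol, 10126 had a promoter in that table, and motifs were searched on both strands, with each promoter counted once and no motif contained in another. The interferon core was found in 25 of 33 promoters of interferon-stimulated effectors (75.8%), against 6.31% of all 10126 promoters and 8.29% of the whole table. The NF-kB motif was found in 6 of 8 chemokine promoters (75%), against 13.2% of all 10126. TTTGAA was found in 30 of 41 promoters of mitosis genes (73.2%), against 9.68%, and CCAAT, the box bound by NF-Y, in 32 of 41 (78.0%), against 37.0%. E2F motifs were found in 21 of 36 replication promoters (58.3%), against 5.53%. For sterol and fatty acid synthesis, the sterol element TCACNCCAC matched 1 of 31 promoters (3.23%), against 1.06%, and CCAAT matched 21 of 31 (67.7%). Over all genes called, the shares were close together: the interferon core was in 7.73% of promoters of genes called higher and 6.48% of those called lower, and TTTGAA in 11.7% and 11.6%. A match describes letters in this window and not binding.

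**Figure D2:**
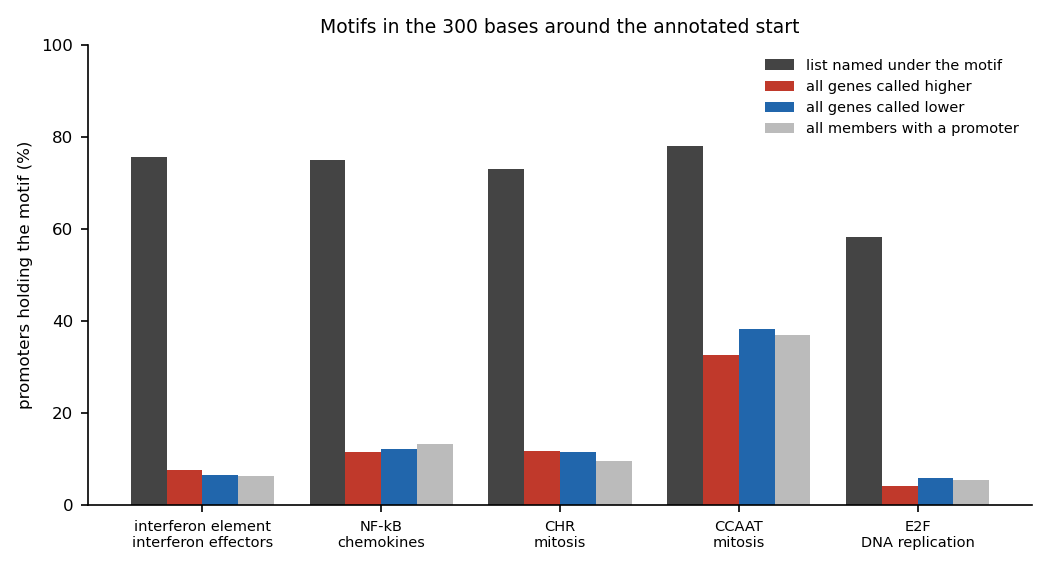
Share of promoters (percent, vertical axis) that hold each motif, with black bars for the gene list named under the motif, red and blue for all genes called higher and lower, and grey for all 10126 genes with a promoter. The black bars reach 58.3% to 78.0%, and the red and blue bars lie near the grey ones for each motif.

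Among 26 sensors and adaptors of the response to double-stranded RNA, 8 were higher and 1 was lower in the shADAR1 input, with a median log2 ratio of 0.40. These are 30.8% higher and 3.85% lower, beside 9.14% and 10.3% of all genes. The entry limit bears on these shares. It was reached in the shADAR1 input alone by 3 of the 26 (OAS2, OASL and OAS1), so these had to stand high. In the shControl input alone it was reached by 1 (DHX58), which had to stand low. The OAS enzymes make the second messenger that activates RNase L. OAS2 had 481 counts in the shADAR1 input and 6 in the shControl input (112-fold higher, log2 ratio 6.81, 5.68 to 8.26). OASL, a relative without synthetase activity, and OAS1 had 110 and 66 counts in the shADAR1 input and 0 in the shControl input, at least 51.4-fold and at least 30.8-fold higher. RIGI, the sensor RIG-I, had 1099 against 518 counts (2.97-fold higher) and IRF1, an interferon regulatory factor, 1853 against 929 (2.79-fold higher). DHX58, the sensor LGP2, went the other way with 18 against 87 counts (log2 ratio -1.79, -2.61 to -1.04). EIF2AK2, which encodes PKR, stayed under 2-fold with 7112 against 7526 counts (0.40, 0.36 to 0.45), and so did the kinase JAK1 (0.19). Of the 3 interferon genes on the list, singled out after their values were seen, IFNB1 had 2 counts in the shADAR1 input and 0 in the shControl input, IFNE 0 and 1, and IFNL1 0 in both; other interferon genes were not examined.

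Of 41 interferon-stimulated effectors, 26 were higher (63.4% beside 9.14% of all genes) and 1 was lower, with a median log2 ratio of 1.30. The entry limit was reached in the shADAR1 input alone by 3 of the 41 and in the shControl input alone by 2. IFI6, an antiviral protein that restrains apoptosis, had 1129 counts in the shADAR1 input and 172 in the shControl input, 9.19-fold higher (log2 ratio 3.2, 2.97 to 3.44). IFIT2 had 525 against 116 counts and IFIT3 1138 against 276, 6.34-fold and 5.77-fold higher, and both belong to a family that binds viral RNA and holds back its translation. CXCL10, a chemokine that draws T cells, had 112 against 17 counts (3.21, 2.46 to 4.04). IFI44L had 110 against 17 counts (3.18), and HERC5, the ligase that attaches ISG15, 56 against 10 (2.97, 1.99 to 4.11). IFITM3, which blocks entry of viruses, had 11838 against 8084 counts, 2.05-fold higher and under 2-fold with scaling by total counts. Its neighbour IFITM2 was not called (2389 against 4151 counts, log2 ratio -0.31). ISG20, an exonuclease, was the 1 member called lower, with 21 against 63 counts and an interval of -1.89 to -0.37 that crosses 2-fold. In MHC class I and peptide loading, which interferon also raises, 0 of 18 genes were called and the median was 0.26, with B2M at 10009 against 9364 counts (log2 ratio 0.58) and CALR at 17399 against 20403 (0.26); with trends over GC content and length removed, 2 of these 18 were past 2-fold.

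Chemokines, a list that also holds the receptor ACKR3, had a median log2 ratio of 5.45 over the 10 with enough counts. Of these, 9 were higher and 0 lower (90.0% and 0%, beside 9.14% and 10.3% of all genes). The entry limit bears on this: 8 of the 10 reached 50 counts in the shADAR1 input alone, so these had to stand high, and 2 reached it in both inputs (CCL2 and CXCL12). With at least 10 counts, 13 chemokine genes gave 10 higher and 1 lower. Of all 1206 genes called higher, 301 had 50 counts in the shADAR1 input alone, and of the 1356 called lower, 481 in the shControl input alone. CXCL6, which attracts neutrophils, had 626 counts in the shADAR1 input and 1 in the shControl input (log2 interval 7.29 to 15.08). CXCL1 had 3260 against 16 counts, CXCL8 4136 against 26 and CXCL3 427 against 10, all ligands of CXCR2. CXCL14 had 328 counts in the shADAR1 input and 0 in the shControl input, at least 153-fold higher. With genes at 0 counts in 1 input placed at that bound, the medians of chemokines, of the sensors and adaptors and of the glycolysis and hypoxia genes were the same (5.45, 0.40 and 0.86). ACKR3, a receptor that removes CXCL12, had 346 against 10 counts (48.5-fold higher, log2 ratio 5.6, 4.7 to 6.67), and CXCL12 itself 332 against 767 (-0.72, -0.91 to -0.53), under 2-fold. CCL2, a chemokine for monocytes, had 3287 against 691 counts and was 6.66-fold higher (2.62 to 2.86).

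Of 25 interleukins, growth factors and their receptors, 11 were higher and 1 was lower (44.0% and 4.0%, median 0.92); 4 of the 25 reached 50 counts in the shADAR1 input alone. ANGPTL4, an inhibitor of lipoprotein lipase, had 956 counts in the shADAR1 input and 10 in the shControl input, 134-fold higher (log2 ratio 7.06, 6.18 to 8.13). EREG and AREG are ligands of the EGF receptor, and they had 2304 against 184 and 163 against 24 counts. NRG1, a ligand of ERBB3 and ERBB4, had 1049 against 204 counts (7.2-fold higher), and FGF7, a growth factor for epithelium, 3974 against 1790 (3.11-fold higher). IL24 had 151 against 16 counts (3.72, 2.98 to 4.57). IL32 was the 1 member lower, with 206 against 1131 counts (3.92-fold, -1.97, -2.19 to -1.76). The receptors IL6ST and IL1R1 stood at 0.45 and 0.22. In proteases and their inhibitors 7 of 21 were higher and 2 lower (33.3% and 9.52%, median 0.42). MMP3, the protease stromelysin, had 192 counts in the shADAR1 input and 2 in the shControl input (log2 interval 5.2 to 10.13). The aggrecanases ADAMTS5 (5794 against 161 counts, 50.4-fold) and ADAMTS1 (13205 against 2027, 9.12-fold) were higher, and so were the protease inhibitor SERPINE2 (3601 against 887, 5.69-fold) and the plasminogen activator PLAT (10061 against 4076, 3.46-fold). SERPINF1, an inhibitor of vessel growth, had 50 against 750 counts (10.7-fold lower), and TIMP4, an inhibitor of metalloproteases, 10 against 117 (8.35-fold lower), whereas TIMP2 was not called (0.38).

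NF-kB factors and feedback genes had 3 higher and 3 lower of 24, and 12.5% in each direction lies near the 9.14% and 10.3% of all genes. Their median of 0.01 turns negative with scaling by total counts. With the GC and length trends removed 5 of the 24 were higher and 3 lower, and the median was 0.27. PTGS2, the inducible cyclooxygenase, had 306 counts in the shADAR1 input and 19 in the shControl input (22.6-fold higher). VCAM1, an adhesion molecule, had 1511 against 194 counts (10.9-fold higher) and NFKBIZ, a nuclear partner of NF-kB, 2361 against 568 (5.82-fold higher). RELB, a subunit of the noncanonical pathway, had 153 against 997 counts (4.65-fold lower, log2 ratio -2.22, -2.47 to -1.97). SOD2, a mitochondrial superoxide dismutase, had 22030 against 29919 counts (0.04). Of 14 complement and acute phase genes, 6 were higher and 1 was lower (42.9% and 7.14%, median 0.81). The entry limit was reached in the shADAR1 input alone by 2 of the 14 (C3 and C7), so these had to stand high. A2M, a broad protease inhibitor, had 3832 against 457 counts (11.7-fold higher), C3, the central complement protein, 387 against 46 (11.8-fold higher) and C7, a part of the membrane attack complex, 111 against 13 (12-fold higher). C4A, which has a near-identical copy and is uncertain, had 83 against 55 counts and was under 2-fold with scaling by total counts. C1QTNF1, the member called lower at -1.01, was under 2-fold with the scaling of DESeq2 and with the GC and length trends removed.

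**Figure D3:**
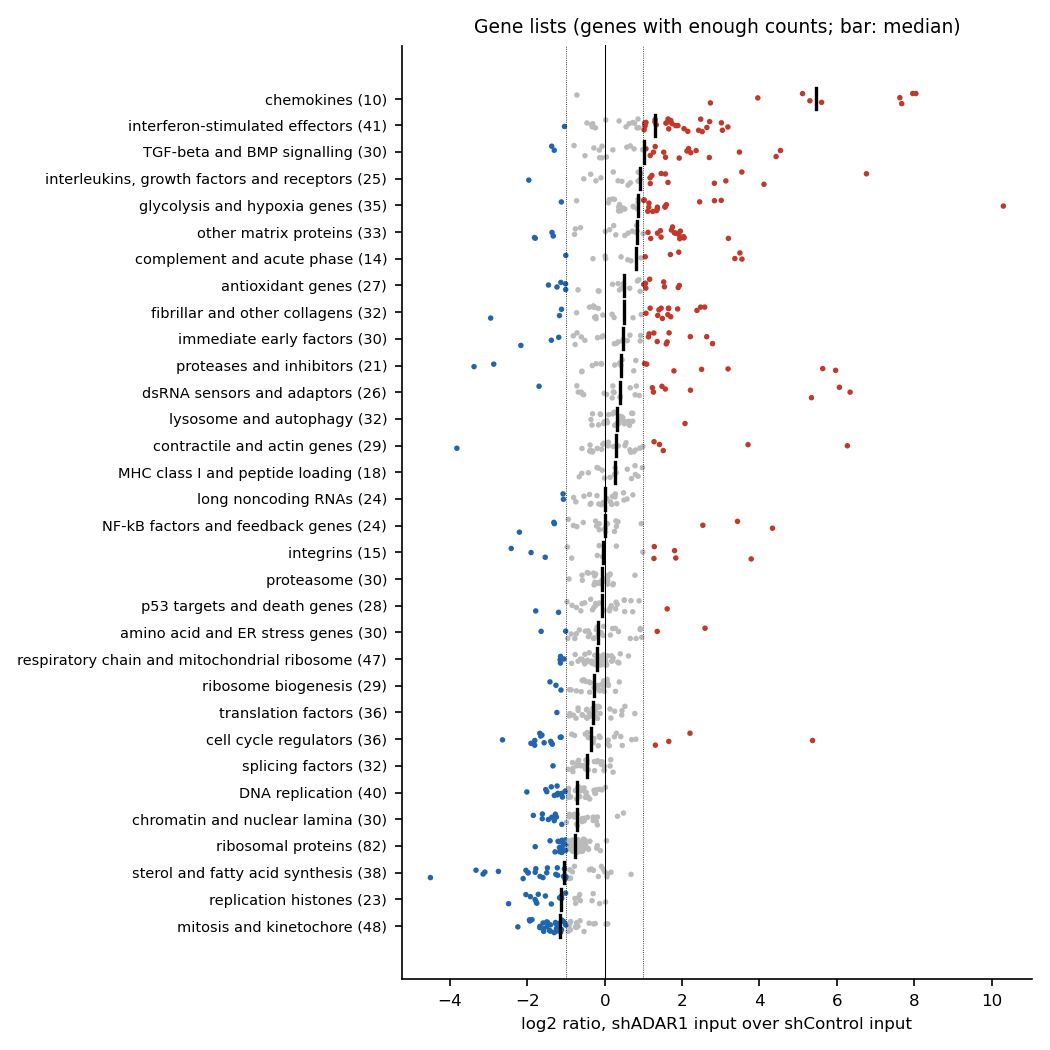
Log2 ratio (horizontal axis, shADAR1 input over shControl input) of every gene with enough counts in lists of 10 or more such genes, whose number stands in brackets. Points are genes, red or blue past 2-fold, and black bars are list medians, which run from 5.45 for chemokines at the top to -1.16 for mitosis and kinetochore genes at the bottom.

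Genes of cell division were lower in the shADAR1 input. Of 48 mitosis and kinetochore genes, 31 were lower (64.6% beside 10.3% of all genes) and 0 higher, with a median log2 ratio of -1.16. In bulk RNA, fewer cells in a phase of the cycle and less RNA per cell cannot be told apart. CENPA had 72 counts in the shADAR1 input and 487 in the shControl input, 4.83-fold lower (log2 ratio -2.27, -2.65 to -1.91). CENPM and SPC25, parts of the kinetochore, had 64 against 352 and 74 against 388 counts, 3.93-fold and 3.74-fold lower. BIRC5, the survivin subunit of the chromosomal passenger complex, had 700 against 3143 counts (3.21-fold lower), and TROAP, a spindle protein, 121 against 655 (3.87-fold lower). KIF4A, a kinesin of the chromosome arms, had 218 against 980 counts (3.21-fold lower). MKI67, the proliferation antigen, had 1982 against 5782 counts, 2.08-fold lower with an interval of -1.13 to -0.98 that crosses 2-fold. The condensin subunit SMC4 had 1243 against 4132 counts (2.37-fold lower).

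Of 40 DNA replication genes, 13 were lower (32.5%), 0 were higher and the median was -0.71, so that most of them lay below 0 without passing 2-fold: 39 of 40 were under 0. Where the nearer bound of the interval had to be past 2-fold, 7 were lower, and with the GC and length trends removed 10 were lower. GINS2, a subunit of the replicative helicase, had 98 counts in the shADAR1 input and 561 in the shControl input (4.09-fold lower, log2 ratio -2.03, -2.36 to -1.72). MCM5, of the same helicase, had 528 against 2131 counts (2.88-fold lower), while MCM7 (1319 against 3523, -0.93) and MCM4 (1457 against 3040, -0.58) were under 2-fold. CDT1, which loads the helicase, had 263 against 1044 counts and GMNN, which restrains CDT1, 196 against 680; CDT1 stood at -1.5, or -0.99 with the GC and length trends removed, and GMNN at -1.31. TK1, the thymidine kinase, had 679 against 2481 counts and was also under 2-fold with those trends removed (-1.38 and -0.82).

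Regulators of the cycle moved in both directions, 4 higher and 13 lower of 36 (11.1% and 36.1%, median -0.36). The D cyclins, which drive CDK4 and CDK6, were among those higher: CCND2 had 27972 counts in the shADAR1 input and 944 in the shControl input (41.5-fold, log2 ratio 5.38, 5.28 to 5.47). CCND3 had 6878 against 3056 counts (3.15-fold higher) and CCND1 113094 against 63899 (2.48-fold higher). CDK6 had 27913 against 8483 counts (4.61-fold higher). FOXM1, the transcription factor of late cycle genes, had 786 against 4136 counts (3.76-fold lower), and E2F8, a repressor of the E2F family, 39 against 177 (3.24-fold lower). The phosphatases CDC25A (123 against 610 counts, 3.54-fold) and CDC25B (1511 against 6780, 3.2-fold), which switch on CDKs, were lower. CDKN1C, the inhibitor p57, had 52 against 467 counts (6.41-fold lower). The inhibitor gene of the series' title, CDKN2A, had 969 against 1141 counts (log2 ratio 0.25, 0.13 to 0.38, or 0.81 with the GC and length trends removed), and CDKN1A, encoding p21, 21765 against 33593 (-0.14, turning to 0.19 without those trends).

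Chromatin and nuclear lamina genes were lower in 9 of 30 cases (30.0%) and higher in 0 (median -0.72). HMGA1 and HMGA2, architectural proteins of chromatin, had 13657 and 4482 counts in the shADAR1 input against 68747 and 17230 in the shControl input, 3.59-fold and 2.74-fold lower. HMGB2 had 581 against 2497 counts and HMGN2 2890 against 10466, 3.07-fold and 2.59-fold lower. LMNB1, lamin B1, had 503 against 1709 counts (2.43-fold lower, log2 interval -1.42 to -1.13), and LMNA, which encodes lamins A and C, 13794 against 23738 (-0.30), under 2-fold. EZH2, the methyltransferase of Polycomb, had 193 against 671 counts (2.48-fold lower), and SIRT1, a deacetylase that depends on NAD, 459 against 1038 (-0.69, -0.85 to -0.53). Of 23 replication histone genes, whose mRNAs largely lack a poly(A) tail, 14 were lower (60.9%) and 0 higher (median -1.12), and 9 were lower with the trends removed. The linker histones H1-5 (974 against 5174 counts, 3.79-fold) and H1-3 (759 against 3705, 3.49-fold) were lower, H3C13 had 75 against 599 counts, and H2BC12 was near 0 at -0.13; copies within this family are close in sequence, so single members are uncertain.

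Sterol and fatty acid synthesis had 22 of 38 genes lower (57.9% beside 10.3% of all genes) and 0 higher, with a median of -1.05. SCD, the desaturase that makes oleate, had 1222 counts in the shADAR1 input and 38933 in the shControl input, 22.7-fold lower (log2 ratio -4.51, -4.59 to -4.43). FADS2, the desaturase of polyunsaturated fatty acids, had 1026 against 12319 counts (8.57-fold lower), and FASN, the fatty acid synthase, 3371 against 18657 (3.95-fold lower). SREBF1, the transcription factor of lipid synthesis, had 342 against 3231 counts (6.75-fold lower). INSIG1, which retains SREBP precursors in the endoplasmic reticulum, had 200 against 2833 counts (10.1-fold lower). ABCG1, a sterol exporter, had 20 against 266 counts (9.5-fold lower, -3.98 to -2.59).

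Glycolysis and hypoxia genes were on the other side, 16 higher and 1 lower of 35 (45.7% and 2.86%, median 0.86). The entry limit was reached in the shADAR1 input alone by 2 of the 35 and in the shControl input alone by 0. PDK4, a kinase that closes pyruvate dehydrogenase, had 2105 counts in the shADAR1 input and 0 in the shControl input, at least 983-fold higher. HK2, the inducible hexokinase, had 6952 against 1205 counts (8.08-fold higher, log2 ratio 3.01, 2.93 to 3.1), and SLC2A1, the glucose transporter GLUT1, 9335 against 1828 (7.15-fold higher). NDRG1 had 11316 against 2892 counts, BNIP3, a receptor for mitophagy, 5494 against 2547 and PGK1, a glycolytic kinase, 17065 against 8108; they were 5.48-fold, 3.02-fold and 2.95-fold higher. GAPDH was near the control with 125314 against 126466 counts (0.47), and EPAS1, which encodes HIF-2 alpha, stood at 0.40. CA12, a carbonic anhydrase, was the 1 gene lower (158 against 484 counts), with an interval of -1.4 to -0.87 that crosses 2-fold.

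TGF-beta and BMP signalling had 15 genes higher and 2 lower of 30 (50% and 6.67%, median 1.02). The entry limit was reached in the shADAR1 input alone by 2 of the 30 and in the shControl input alone by 1. Ligands led the list. TGFB2 had 5434 counts in the shADAR1 input and 351 in the shControl input (21.7-fold higher, log2 ratio 4.44, 4.28 to 4.6). BMP2 had 3031 against 378 counts (11.2-fold higher), BMP4 2337 against 699 (4.68-fold higher) and GDF6, a ligand of joint and bone development, 137 against 6 (32-fold higher). The antagonist NOG had 423 against 89 counts (6.66-fold higher), while GREM1, another antagonist, had 11410 against 27706 (-0.79) and was not called. ID1, a direct target of BMP receptors, had 1328 against 360 counts (5.17-fold higher), and the signal carrier SMAD3 stood at -0.07. Lower were the co-receptor TGFBR3 (203 against 706 counts, 2.48-fold) and the ligand TGFB3 (31 against 116, with an interval of -2.04 to -0.84 that crosses 2-fold).

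Matrix gene lists had medians above 0. Of 32 genes for collagens and their processing, 14 were higher and 3 lower (43.8% and 9.38%, median 0.49). COL4A1 and COL4A2, chains of basement membrane collagen, had 12704 and 11481 counts in the shADAR1 input against 3188 and 5113 in the shControl input, 5.58-fold and 3.14-fold higher. COL8A1 had 3339 against 894 counts and COL14A1 809 against 187, 5.23-fold and 6.06-fold higher. The enzymes of crosslinking LOX (3.26-fold) and PLOD2 (3.7-fold) were higher as well. The main fibrillar chains COL1A1 (108169 against 132786 counts, log2 ratio 0.19) and COL1A2 (64439 against 76281, 0.24) were not called, and COL5A3 had 14 against 167 counts (8.52-fold lower). Of 33 other matrix proteins, 15 were higher and 4 lower (45.5% and 12.1%, median 0.83). FBN2, a fibrillin, had 5231 against 797 counts (9.19-fold higher), LUM, a small proteoglycan of collagen fibrils, 1669 against 563 (4.15-fold higher) and CCN2, the connective tissue growth factor, 14343 against 5315 (3.78-fold higher). Lower were the thrombospondin THBS2 (203 against 1007 counts, 3.54-fold) and periostin, POSTN (133 against 472, 2.53-fold), while THBS1 was higher (79109 against 40380, 2.74-fold) and fibronectin, FN1, stood at 0.83.

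Among 29 contractile and actin genes, 5 were higher and 1 lower (17.2% and 3.45%, beside 9.14% and 10.3% of all genes), and the median was 0.29. MYOCD, a coactivator of smooth muscle genes, had 1686 counts in the shADAR1 input and 179 in the shControl input (13.2-fold higher), and ACTA2, smooth muscle actin, 18584 against 9757 (2.67-fold higher). ANKRD1, an ankyrin-repeat protein of striated muscle and a YAP target, had 1231 against 20 counts (6.43, 5.8 to 7.15). Desmin, DES, an intermediate filament of muscle, was lower with 30 against 625 counts (14.9-fold lower), and the cytoplasmic actins ACTB and ACTG1 stood at 0.29 and -0.03. Of 15 integrins, 5 were higher and 3 lower (33.3% and 20%, median -0.06). The entry limit was reached in the shADAR1 input alone by 0 of the 15. In the shControl input alone it was reached by 2 (ITGA7 and ITGA10), both called lower, which bears on the share lower. The collagen receptors ITGA1 (4600 against 1842 counts, 3.5-fold) and ITGA11 (4170 against 1633, 3.58-fold) were higher, and ITGA8, a receptor for nephronectin, had 1627 against 163 counts (14-fold higher). The laminin receptors ITGA6 (427 against 1741, 2.91-fold) and ITGA7 (19 against 106, 3.98-fold) were lower, and the shared subunit ITGB1 stood at 0.30.

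Of 30 immediate early factors, 10 were higher and 3 lower (33.3% and 10.0%, median 0.48): FOS had 2330 counts in the shADAR1 input and 471 in the shControl input (6.93-fold higher), NR4A3 133 against 28 (6.65-fold higher) and the phosphatase DUSP6, a brake on ERK, 3595 against 1588 (3.17-fold higher). KLF4, a Krüppel-like factor, had 27 against 178 counts (4.71-fold lower, -2.88 to -1.65). Among these 30 factors, 4 reached the entry limit in the shADAR1 input alone and 1 in the shControl input alone. In the 27 antioxidant genes, 9 were higher and 5 lower (33.3% and 18.5%, median 0.49), and with the GC and length trends removed 11 were higher and 1 was lower, whereas scaling by total counts left 5 higher. NQO1, a quinone reductase, had 14763 against 7190 counts (2.88-fold higher), GCLM, a subunit of the enzyme that starts glutathione synthesis, 2155 against 1034 (2.92-fold higher), and TKT, the transketolase, 4669 against 14350 (2.19-fold lower). Amino acid and ER stress genes gave 2 higher and 2 lower of 30 (median -0.18), and 6.67% in each direction lies below the 9.14% and 10.3% of all genes. Among them SLC7A11, the cystine transporter, had 10588 against 2456 counts (6.04-fold higher), TRIB3, a pseudokinase of the ATF4 response, 381 against 1673 (3.14-fold lower) and ATF4 5304 against 12356 (-0.73).

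Lysosome and autophagy genes had 1 of 32 higher (3.13%) and 0 lower (median 0.33), and 3 were higher without the trends. The 1 gene was GABARAPL1, which acts in autophagosome formation, with 14033 counts in the shADAR1 input and 4662 in the shControl input (4.22-fold). Of 28 p53 targets and death genes, 1 was higher and 2 lower (3.57% and 7.14%, both under the shares of all genes; median -0.08): GADD45B had 1081 against 493 counts (3.07-fold higher) and BCL2, an inhibitor of apoptosis, 55 against 271 (3.52-fold lower), while BBC3, encoding PUMA, stood at -1.2, or -0.39 with the trends removed.

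Ribosomal protein genes were nearly all below 0. Of 82, 81 were under 0, 19 were lower (23.2% beside 10.3% of all genes) and 0 higher, with a median of -0.76; with the trends removed 12 were lower. RPS2 had 9883 counts in the shADAR1 input and 36847 in the shControl input (2.66-fold lower), RPLP0, of the ribosomal stalk, 18096 against 56208 (2.22-fold lower) and RPL22L1, a paralogue of RPL22, 237 against 1159 (3.49-fold lower). Ribosomal protein genes have many pseudogene copies, so single members are uncertain. Elongation factor EEF1A1 had 184496 against 416487 counts (log2 ratio -0.69) and EEF2 63989 against 144305 (-0.69), and 1 of 36 translation factors was lower (2.78%, median -0.29). Ribosome biogenesis had 3 of 29 lower (10.3%, the share of all genes; median -0.28), with NPM1 and NCL at -0.91 and -0.08, and 1 was lower without the trends. Of 32 splicing factors 1 was lower (3.13%, median -0.45), HNRNPA1 with 5947 against 21052 counts (2.53-fold), and 3 were lower without the trends. The respiratory chain and mitochondrial ribosome had 4 of 47 lower (8.51%, median -0.20; 2 without the trends), and 0 of 30 proteasome genes were called (median -0.06). Of 24 long noncoding RNAs, 2 were lower (8.33%), SNHG8 and SNHG12, and both were under 2-fold without the trends; the list's median of 0.01 turns negative with scaling by total counts, and MALAT1 had 14660 against 26648 counts (-0.38).

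Outside the lists, the 12 highest and 12 lowest genes with at least 500 counts in 1 library included signalling and transport genes. IGFBP3, the main carrier of insulin-like growth factors, had 14700 counts in the shADAR1 input and 420 in the shControl input (49-fold higher, log2 ratio 5.62, 5.48 to 5.76). Endothelin, EDN1, had 1024 against 42 counts (34.1-fold higher) and its receptor EDNRB 1065 against 46 (32.4-fold higher). ANGPT1, the ligand of the receptor TEK, had 5434 against 257 counts (29.6-fold higher). WNT16, a Wnt ligand, had 1359 against 36 counts (52.9-fold higher), and SLC1A1, a glutamate transporter, 711 against 25 (39.8-fold higher). The others at the top were ADAMTS19, PNMA2, CHL1, TMEM178B, TDRD12 and RIPOR3-AS1, an antisense gene that cannot be told from its partner strand here, with folds from 51.4 to 116. At the bottom stood CYP1B1, a cytochrome P450 that oxidises aromatic compounds and steroids, with 42 against 1781 counts (30.3-fold lower), and the potassium channel KCNK2 with 12 against 538 (32-fold lower). GDF5, a growth factor of joints, had 30 against 906 counts (21.6-fold lower), and BACE2, an aspartic protease, 44 against 887 (14.4-fold lower). NPTX1, STMN3, BAALC, TRIM55, RAMP1, SLC7A14, SAPCD2 and MAB21L2, whose exons overlap another gene over 53.8% of their length, were between 10.6-fold and 28.9-fold lower.

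Markers were set beside the label of the cells. Fibroblast markers were present in both inputs, with summed levels of 5798 CPM in shADAR1 and 5856 in shControl, led by VIM (123553 against 187848 counts, -0.12) and with THY1 at 0.39. Among them, the mesenchymal homeobox gene PRRX1 had 181 counts in the shADAR1 input and 5563 in the shControl input (21.9-fold lower), and TBX4, a T-box gene of lung mesenchyme, 0 against 121 (at least 28.8-fold lower), whereas TBX5 was higher (2916 against 1698, 2.41-fold). Endothelial markers summed to 76.9 CPM in shADAR1 and 21 in shControl, of which the receptor TEK (2049 against 641 counts) made up most. The other 2 with enough counts lay below 0, but both reached the entry limit in the shControl input alone, which favours low ratios. ROBO4 had 16 against 56 counts (called lower, under 2-fold without the GC and length trends) and VWF 25 against 70 (not called). The median log2 ratio of these 3 genes was -0.95, and CDH5, ERG and EMCN had 0 counts in both. Epithelial markers summed to 55.4 and 126, with KRT19, CLDN4, KRT8 and KRT18 lower (KRT8 and KRT18 under 2-fold without the GC and length trends) and KRT5, ESRP1 and SFTPC at 0 in both. Of the 4 called lower, KRT19 and CLDN4 reached the entry limit in the shControl input alone, which favours low ratios. Leukocyte markers summed to 34.7 and 31.4, with CD163, TYROBP and CD3E at 0 in both. Most of the sum came from CD68 (27.8 and 30.1 CPM, log2 ratio -0.12), whose exons overlap another gene over 85.8% of their length. LYZ had 18 against 27 counts, under the entry limit. CD14, a receptor for lipopolysaccharide, had 152 counts in the shADAR1 input and 1 in the shControl input (log2 interval 5.23 to 13.05). It reached the entry limit in the shADAR1 input alone, so it had to stand high. Smooth muscle and pericyte markers summed to 635 and 423.

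The HuR precipitates of both lines share no library with the inputs but come from the same lines, and the labels do not say whether input and precipitate came from 1 lysate, so the 2 pairs may not be separate cultures. In them, 1301 of 12318 genes were higher in the shADAR1 precipitate (10.6%) and 1177 lower (9.56%). Of the 1206 genes higher in the shADAR1 input, 1060 had enough counts in the precipitates, where 673 were higher, 1 was lower and the median log2 ratio was 1.28. Of the 1356 genes lower in the input, 936 had enough counts, where 492 were lower, 6 were higher and the median was -1.06. Across 11728 genes, not independent of each other, Pearson's r of the log2 ratios was 0.76 and Spearman's rho 0.62. Single genes varied in how far the 2 pairs went together; values set across pairs carry a prior count of 2 and can lie below the single-gene ratios above. CCND2 had 302421 counts in the shADAR1 precipitate and 7948 in the shControl precipitate (log2 ratio 5.11, against 5.37 in the inputs). SCD had 4220 against 93174 (-4.61 and -4.51), PRRX1 575 against 13168 (-4.66 and -4.44) and OAS2 488 against 0 counts. LUM stood at 0.56 in the precipitates and 2.05 in the inputs, and FASN at -0.65 and -1.98.

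**Figure D4:**
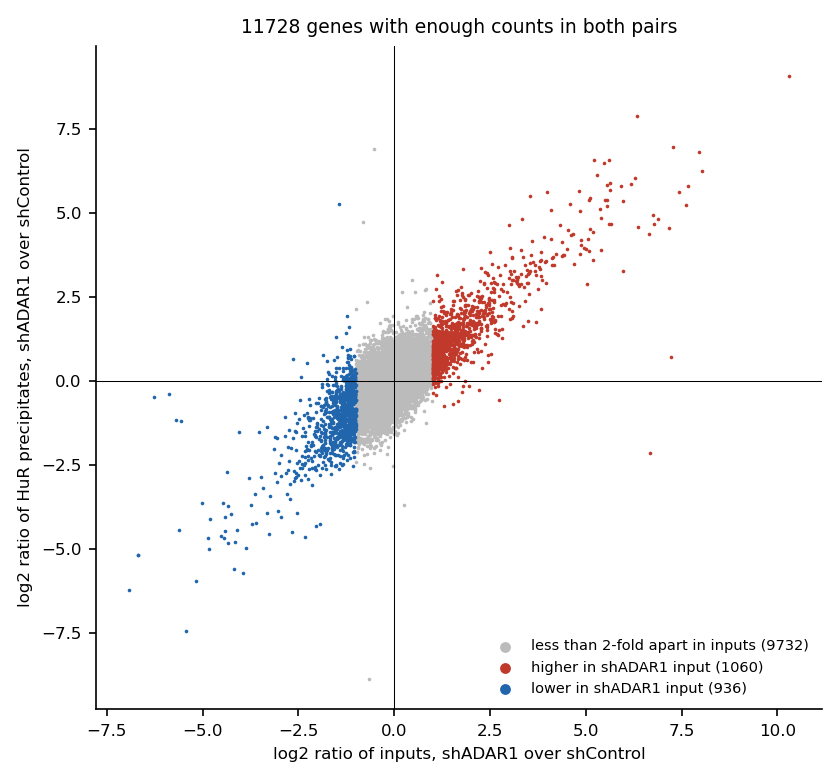
Log2 ratio of the HuR precipitates (vertical axis, shADAR1 over shControl) against that of the inputs (horizontal axis) for 11728 genes with enough counts in both pairs. Red points are the 1060 genes higher and blue points the 936 genes lower in the shADAR1 input; most red points lie above 0 on the vertical axis and most blue points below 0.

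The separate RNA-seq pair shares no library with the inputs, and its ratios had almost no relation to theirs. Across 12250 genes, not independent of each other, Pearson's r of the log2 ratios was 0.06 and Spearman's rho -0.07. In it 1100 of 13235 genes were higher in the knockdown (8.31%) and 1020 lower (7.71%). Of the 1206 genes higher in the shADAR1 input, 994 had enough counts there, of which 177 were higher and 113 lower, with a median log2 ratio of 0.01. Of the 1356 genes lower in the input, 1139 had enough counts there, of which 152 were higher and 130 lower, with a median of 0.09. List medians there were taken over the genes of the input comparison, with no count limit in the RNA-seq pair. Some chemokines had few counts in it, where the prior count draws ratios towards 0. CXCL6 had 0 in the knockdown and 4 in the control and CXCL3 1 and 3, while CCL2 had 299 and 290. In the inputs, 8 of the 10 chemokines had entered through the shADAR1 input alone. Both limits bear on the chemokine medians. Most list medians named here lay elsewhere as well. Interferon-stimulated effectors had a median log2 ratio of -0.36 there (1.30 in the inputs), chemokines 0.03 (5.45), mitosis genes 0.07 (-1.16), DNA replication 0.37 (-0.71), glycolysis and hypoxia genes -0.21 (0.86) and sterol and fatty acid synthesis -0.30 (-1.05). TGF-beta and BMP signalling was positive in both, at 0.73 and 1.02, and so were immediate early factors, at 0.51 and 0.48. ADAR had 1445 counts in the RNA-seq knockdown and 7732 in its control (log2 ratio -2.81, against -1.55 in the inputs). IFI6 had 505 against 212 counts (0.86) and OAS2 2 against 4. SCD, lower in the inputs, stood at -1.68 (9610 against 23523 counts), and PDK4, higher in the inputs, had 10 against 0 counts. Effects of the experiment and of the cultures cannot be told apart here.

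**Figure D5:**
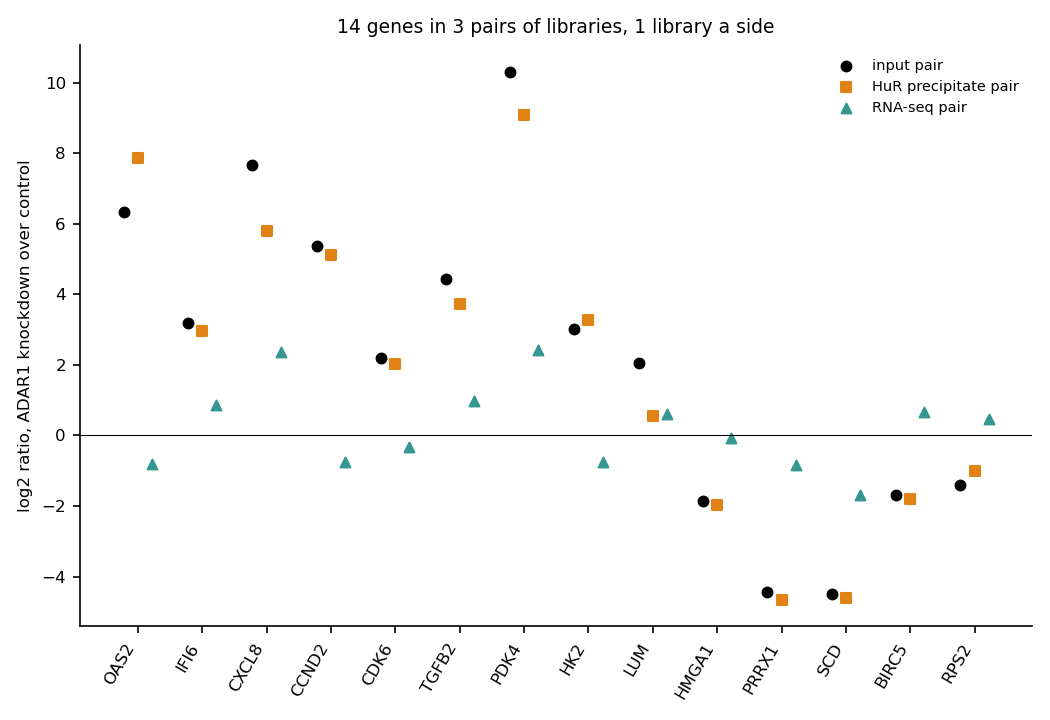
Log2 ratio of ADAR1 knockdown over control (vertical axis) for 14 genes from the lists, chosen after their values were seen, in the input pair (black circles), the HuR precipitate pair (orange squares) and the RNA-seq pair (green triangles), 1 library a side, with a prior count of 2 that sets the position of genes at 0 counts in 1 library. Circles and squares lie on the same side of 0 for all 14 genes, while triangles lie on the other side for 6 of them.

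The shHuR input was set against the same shControl input, so its ratios share that library with those above, and the values stand here side by side only. List medians were taken over the genes of the shADAR1 comparison, with no count limit of their own. In the shHuR input over the shControl input, list medians were 3.93 for chemokines (5.45 for shADAR1), -3.88 for mitosis genes (-1.16), -2.09 for DNA replication (-0.71), -0.97 for sterol and fatty acid synthesis (-1.05) and -0.19 for interferon-stimulated effectors (1.30). ELAVL1, which encodes HuR, stood at -2.73 in the shHuR input and 0.05 in the shADAR1 input, and ADAR at -0.35 and -1.55. Other single genes went both ways, and those given here are examples. CYP1B1 stood at 0.22 in the shHuR input and -4.87 in the shADAR1 input, BACE2 at -0.33 and -3.8, and ACKR3 at -1.94 and 5.3. Far from 0 on the same side in both lay STMN3 at -4.97 and -4.81, SCD at -4.02 and -4.51, PDK4 at 9.42 and 10.3, and IGFBP3 at 6.48 and 5.61.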

How the data were processed

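RNA was measured in the input libraries of shADAR1 and shControl IMR90 cells, 1 library each, and groups came from the sample titles. Per the submitters' processing notes, the deposited values are expected counts per gene from RSEM 1.2.3 with hg19 and GRCh37, and per the labels' protocols the KAPA RNA HyperPrep kit was used. The authors' expected counts are whole numbers and were used as deposited, with DESeq2 named by the submitters' notes for the RNA-seq alone. The aligner, the annotation release and the strand setting are not given in the sources used here, so antisense genes are uncertain. The FPKM values of the RNA-seq were not used, and mitochondrially encoded mRNAs were not analysed here.

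Each pair of libraries was scaled on its own by TMM in edgeR 4.0.16. A prior count of 2 entered calls, list medians and values set across pairs, and none entered single-gene folds. Calls needed 2-fold and at least 50 counts in 1 library. Intervals are exact conditional binomial (Clopper-Pearson) at 95%. With 1 library a group no test was possible and no p-value is given. Lowess trends over GC content and transcript length (GENCODE 29) used a span of 0.3, and 97.6% of genes had both values. Genes sharing over 50% of exon length are named as uncertain or as overlapping. Symbols, transcript lengths and promoters follow GRCh38, so no gene coordinates are given for the counts.

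The genes and the 40 lists (1178 genes) were chosen with earlier results of these data known. Genes were named from the targets, up to 6 called per direction and the 2 with most shControl counts of each list, the 12 highest and 12 lowest outside the lists with at least 500 counts, and the 8 most abundant, besides genes said to be singled out, markers at 0 counts and genes named as background; not every gene so chosen is reported here. Alternatives were other scalings (DESeq2 1.42.0), prior counts, count limits, folds and trend removal; TMM over the 3 inputs was chosen after seeing the data. The calculation was tested on simulated data.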

Additional observations from a re-analysis of the deposited data

Results flagged for a closer look

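The medians of 3 lists lay on opposite sides of 0 in the input pair and the RNA-seq pair, by at least 0.5 on the log2 scale in each; the difference itself was not tested, since each pair has 1 library a side. Both medians were taken over the genes of the input comparison, with no count limit in the RNA-seq pair. Complement and acute phase genes had a median log2 ratio of 0.81 in the inputs and -0.56 in the RNA-seq pair. Ribosomal proteins had -0.76 in the inputs and 0.55 in the RNA-seq pair. Replication histones had -1.12 in the inputs and 1.12 in the RNA-seq pair.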

How the results depend on the processing

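Counts of genes higher and lower stayed within 1.5 times of 1206 and 1356 under every scaling, prior count and trend setting tried, from 997 to 1227 higher and from 1048 to 1694 lower. With at least 10 counts in 1 library they were 1869 and 2147 (of 16118 genes), at 1.5-fold 2492 and 2803, and with the nearer bound of the interval past 2-fold 901 and 856. The log2 ratio of ADAR was -1.66 with scaling by total counts, -1.68 with total counts without the 10 most abundant genes and -1.67 with the GC and length trends removed, beside -1.55. Leukocyte markers turned from a median of 2.95 to -0.12 with at least 200 counts, which leaves 1 gene. Of 232 named genes called, 202 were still called with the trends removed, 226 with total counts, 228 with DESeq2's scaling, 197 with at least 200 counts, 205 with the interval bound, and all 232 with TMM over the 3 inputs (chosen after seeing the data) and with a prior count of 0.5. Of the list medians under the alternatives, 239 stayed within the typical counting interval of the list's genes and 72 moved further. A further 1, at least 1 from 0 on the log2 scale, changed sign. Sign changes of medians nearer 0 were not counted apart. They occurred for NF-kB factors and long noncoding RNAs with scaling by total counts. With the trends removed, integrins went from -0.06 to 0.05 and p53 targets and death genes from -0.08 to 0.13. Leaving out a library was not possible, since each group has 1. No paired analysis was possible because each group holds 1 library. Counting error limits genes near 50 counts: where the larger of the 2 counts was 50 to 59, the median interval spanned 1.43 on the log2 scale.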
